A study of Mus musculus with 6 samples.

Results

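The genes described here encode enzymes that remove superoxide and peroxides and that make and recycle glutathione, measured in endothelial cells sorted from mouse bone marrow. They are the superoxide dismutases Sod1, Sod2 and Sod3, catalase (Cat), the glutathione peroxidases Gpx1, Gpx3 and Gpx4, the glutamate-cysteine ligase subunits Gclc and Gclm, and glutathione reductase (Gsr). They were chosen by symbol, 10 of the 22180 genes that had a probe set naming them alone, and each is measured by 1 probe set. Male C57BL/6J mice with diabetes induced by high fat feeding gave 3 arrays (diabetic), and male C57BL/6J mice labelled as controls gave 3 more (nondiabetic). Every sample was a sort of 5000 bone marrow endothelial cells. All 6 labels describe a diet with 60 kcal% fat given for 4 months, so what the controls were fed is not settled by them, and no age is stated. Nothing in the labels says whether each array is a different mouse, so the spread behind every p-value is that between arrays and could be technical.

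Superoxide dismutases turn superoxide into hydrogen peroxide, and each form works in its own compartment. Catalase and the glutathione peroxidases then break hydrogen peroxide down, the peroxidases at the expense of reduced glutathione. Glutamate-cysteine ligase carries out the rate-limiting step of glutathione synthesis, and glutathione reductase regenerates glutathione with NADPH. In endothelium these enzymes set how much superoxide and peroxide reach nitric oxide and membrane lipids, and they are much studied in diabetic vessels.

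No member passed the test between diabetic and nondiabetic cells. Sod2 and Gclm had lower values on every diabetic array than on any nondiabetic array, and the other tested members overlapped between the groups. Of the 10 members, 9 passed the filter on dim genes, which removed genes with a mean log2 value below 5.07, and 1, Gpx3, did not. With limma, 0 of these 9 were called at an adjusted p under 0.05, where 0.00751% of the 13308 tested genes (1 gene) were called. At an unadjusted p under 0.05, 1 of the 9 was lower and 0 were higher in diabetic cells, where 1.07% of tested genes were lower and 3.19% higher. The diabetic arrays lay wholly below the nondiabetic arrays for 2 of the 9, where 2.67% of tested genes did so. The members were selected with earlier results of these data known, so these shares do not set them apart from other genes. By mean, 3 of the 9 were higher and 6 lower in diabetic cells, where 46% of tested genes were lower. The members had a median log2 difference of -0.03, and the median over all tested genes was 0.02.

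**Figure D1:**
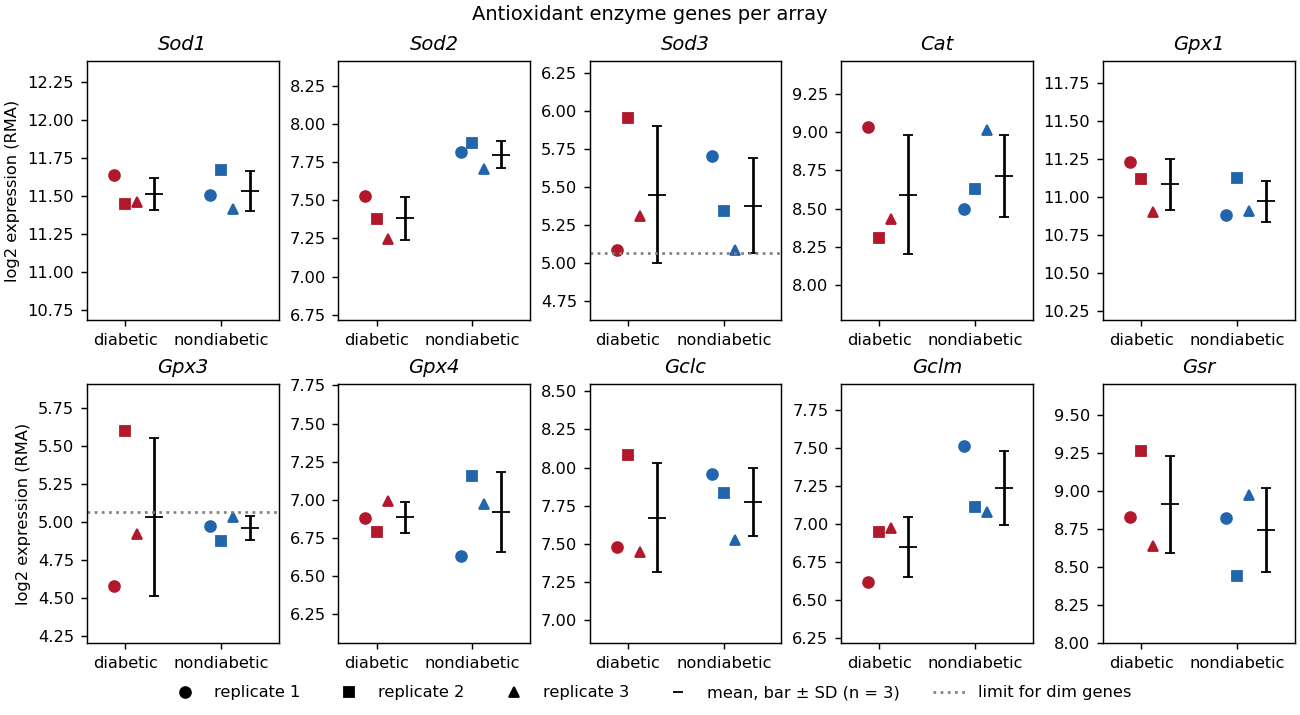
Log2 expression of each member on each array (vertical axis, every panel spanning the same range), with diabetic arrays in red on the left and nondiabetic arrays in blue on the right; black bars give the mean ± SD (n = 3) and the dotted line the limit for dim genes, 5.07. The groups are separate for Sod2 and Gclm and overlap in the other 8 panels.

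Sod2, the manganese dismutase of the mitochondrial matrix, had the largest difference among the tested members and the smallest p. Its log2 values were 7.53, 7.38 and 7.24 on diabetic replicates 1, 2 and 3, against 7.82, 7.88 and 7.71 on nondiabetic replicates 1, 2 and 3. Every diabetic value was lower than every nondiabetic value, and the values within a group differed by at most 0.28. The difference was -0.42 (SE 0.15), a ratio of 0.749 with a 95% interval of 0.588 to 0.954, not adjusted. The limma p was 0.0249 and the adjusted p 0.997, and Sod2 ranked 265 of 13308 genes by p. A difference of this size or larger in either direction was seen for 8.92% of tested genes. The difference stayed between -0.49 and -0.29 under the 17 alternatives tried, and the unadjusted limma p between 0.00989 and 0.117. Several alternatives could move only the p and not the difference of a gene with 1 probe set. They were the dim filters, the probe set handling, the variance settings and the replicate block.

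Sod1, the copper-zinc dismutase of the cytosol, overlapped between the groups within a narrow spread. Its log2 values were 11.63, 11.44 and 11.46 on the diabetic arrays, against 11.50, 11.67 and 11.41 on the nondiabetic arrays. The highest and the lowest value were both nondiabetic. The difference was -0.02, with a 95% interval of -0.37 to 0.33, and its sign turned in 4 alternatives. The change of Sod2 relative to Sod1 within an array, a contrast chosen after the values were seen, was -0.40 (SE 0.06), or 0.758-fold. This SE comes from the array values of the ratio alone, whereas limma draws on all tested genes for the SE of a gene. The SEs are therefore not like for like. The log2 ratio of Sod2 to Sod1 was lower on all 3 diabetic arrays than on any nondiabetic array. The exact two-sided permutation test gave p = 0.1, the smallest it can give with 3 arrays against 3, and 0.2 after adjustment over the 2 gene pairs compared in this way.

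Sod3, the secreted dismutase that binds heparan sulfate on cell surfaces and matrix, lay near the limit for dim genes. Its log2 values were 5.09, 5.95 and 5.31 on the diabetic arrays, against 5.70, 5.34 and 5.09 on the nondiabetic arrays. The arrays of both groups covered most of the same range. The difference was 0.07, with a 95% interval of -0.53 to 0.67, and it was -0.18 without diabetic replicate 2.

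The promoter of Sod2 is shown because that gene had the smallest p, and the promoter of Gclm because it is the other member whose groups were separate. RefSeq promoter windows of build GRCm38.p6 matched 7 of the 10 members. In the 250 bases before each annotated start, both strands were searched for the antioxidant response element TGACNNNGC, the site of NRF2 with small MAF proteins, and for the GC box GGGCGG, a site of SP1 and related factors. The antioxidant response element was in 10.16% and the GC box in 32.74% of all 32851 promoter windows. The GC box was found for 6 of the 7 members and the antioxidant response element for 2, Sod1 and Gclm. A member was counted if any of its windows held the motif, and Gpx4 had 4 windows. The percentages count single windows, so they are not like for like with the member counts. Capitals mark both motifs below, which do not overlap each other in these sequences, and bases inside the annotated gene are left out. The Sod2 stretch is chr17:13007589-13007838 and the Gclm stretch chr3:122245307-122245486, both on the plus strand.
Sod2: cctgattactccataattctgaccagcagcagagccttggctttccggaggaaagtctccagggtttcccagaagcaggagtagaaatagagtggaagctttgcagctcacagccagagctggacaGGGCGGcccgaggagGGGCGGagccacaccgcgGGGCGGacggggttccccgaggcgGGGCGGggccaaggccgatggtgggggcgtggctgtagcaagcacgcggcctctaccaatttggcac
Gclm: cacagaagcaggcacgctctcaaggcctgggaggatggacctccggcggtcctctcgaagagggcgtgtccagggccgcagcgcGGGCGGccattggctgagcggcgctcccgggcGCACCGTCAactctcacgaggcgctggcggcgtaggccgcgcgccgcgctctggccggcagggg

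The Sod2 stretch held 4 GC boxes and no antioxidant response element. The Gclm stretch held 1 GC box and 1 antioxidant response element, GCACCGTCA, which is the motif on the minus strand. It begins 134 bases before the transcript start from which the window is counted, a start that lies inside the annotated gene, past the end of the printed stretch. Over the full 250 bases searched the Gclm window held 3 GC boxes, of which 1 is in the printed stretch. A match gives only the letters present, and binding was not measured.

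Gclm and Gclc encode the modifier and the catalytic subunit of glutamate-cysteine ligase, and Gclm raises the affinity of the enzyme for glutamate. The log2 values of Gclm were 6.62, 6.95 and 6.97 on the diabetic arrays, against 7.51, 7.11 and 7.08 on the nondiabetic arrays. All diabetic values were lower, but diabetic replicate 3 and nondiabetic replicate 3 were close together, and diabetic replicate 1 and nondiabetic replicate 1 were the extremes. The difference was -0.39 (SE 0.19), a ratio of 0.765 with a 95% interval of 0.568 to 1.03, the limma p was 0.071 and the adjusted p 0.997. Leaving out diabetic replicate 1 gave -0.27, and leaving out nondiabetic replicate 1 gave -0.25.

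The catalytic subunit did not separate the groups. Gclc stood at 7.48, 8.08 and 7.45 on the diabetic arrays, against 7.96, 7.83 and 7.53 on the nondiabetic arrays. Diabetic replicate 2 had the highest value of all 6 arrays and the other diabetic arrays the lowest values. The difference was -0.10 (SE 0.22), with a 95% interval of -0.61 to 0.40, and it was 0.11 with array weights and -0.31 without diabetic replicate 2. The change of Gclm relative to Gclc within an array was -0.28 (SE 0.21, from the array values alone), with overlapping groups. The exact permutation p was 0.2, so unequal change of the subunits was not shown.

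Glutathione reductase, which returns oxidised glutathione to its reduced form, also overlapped. Gsr stood at 8.83, 9.26 and 8.64 on the diabetic arrays, against 8.82, 8.44 and 8.97 on the nondiabetic arrays. Diabetic replicate 2 was the highest and nondiabetic replicate 2 the lowest array. The difference was 0.17 (SE 0.22), with a 95% interval of -0.33 to 0.67, and without diabetic replicate 2 it was -0.0070.

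The glutathione peroxidases did not differ beyond their spread. Gpx1, the selenium-dependent peroxidase of the cytosol and mitochondria, stood at 11.23, 11.12 and 10.90 on the diabetic arrays, against 10.88, 11.13 and 10.91 on the nondiabetic arrays. Diabetic replicate 1 was the highest and nondiabetic replicate 1 the lowest, and the difference of 0.11 had a 95% interval of -0.26 to 0.48. It was between 0.039, without diabetic replicate 1, and 0.20, without diabetic replicate 3, when single arrays were left out. Gpx4, the selenoenzyme that reduces lipid hydroperoxides inside membranes and so restrains ferroptosis, stood at 6.88, 6.79 and 6.99 on the diabetic arrays, against 6.63, 7.15 and 6.97 on the nondiabetic arrays. All 3 diabetic values lay inside the nondiabetic range. Its difference was -0.03, with a 95% interval of -0.44 to 0.38.

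Gpx3, the peroxidase secreted into plasma, was left out of the test as dim, because its mean over the 6 arrays was below the limit of 5.07, which 1 of its values exceeded. These values were 4.58, 5.60 and 4.92 on the diabetic arrays, against 4.98, 4.87 and 5.03 on the nondiabetic arrays. The diabetic arrays held both the highest and the lowest value. Fitted with no filter on dim genes, its difference was 0.07, with a 95% interval of -0.51 to 0.66.

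Catalase, the peroxisomal enzyme that splits hydrogen peroxide without glutathione, varied within both groups. Cat stood at 9.04, 8.30 and 8.43 on the diabetic arrays, against 8.50, 8.63 and 9.02 on the nondiabetic arrays. Diabetic replicate 1 and nondiabetic replicate 3 were alike and stood above the other arrays. The difference was -0.12 (SE 0.24), with a 95% interval of -0.67 to 0.42, and it was -0.35 without diabetic replicate 1.

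For all 9 tested members the unadjusted 95% interval lay within 1 either side of 0 on the log2 scale, so a change of 2-fold in either direction was outside it. The widest bounds were -0.82 for Gclm and 0.67 for Sod3. For 3 members, Sod1, Gpx1 and Gpx4, the interval lay within 0.5 either side of 0. These bounds are for the log2 values as deposited and were not adjusted for the number of genes.

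**Figure D2:**
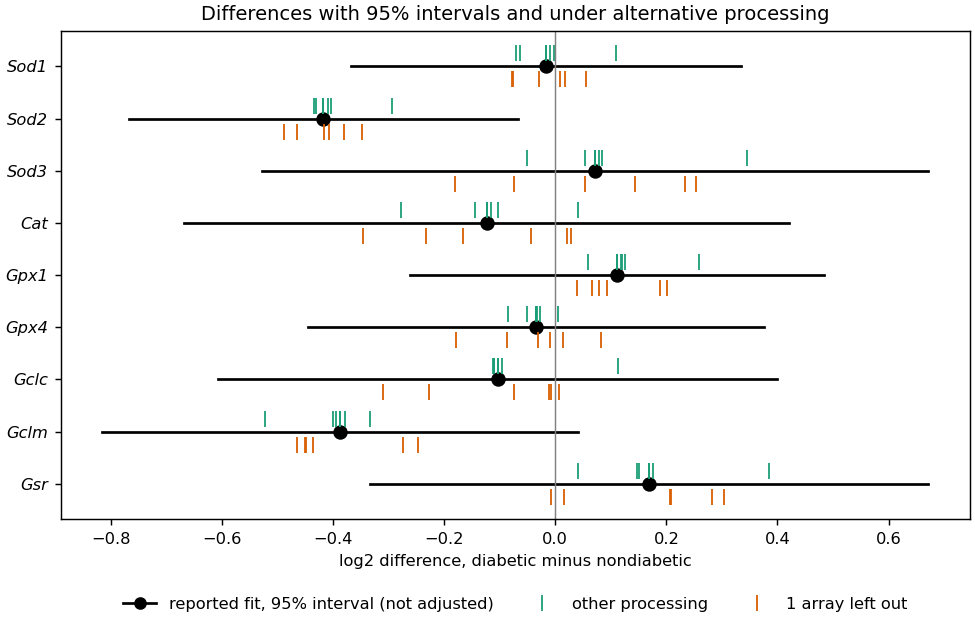
Log2 difference, diabetic minus nondiabetic (horizontal axis), of the 9 tested members: black points and lines give the reported fit with its 95% interval, green ticks the other processing alternatives and orange ticks the fits with 1 array left out. All ticks of Sod2 and Gclm lie below 0 and all those of Gpx1 above 0, while the other members have ticks on both sides.

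Marker genes of vessel types and of other cells are given as values on the same arrays. The exact permutation test of a list mean cannot give a p below 0.1 with 3 arrays against 3. No marker list could therefore pass at the threshold used for genes, with or without adjustment over the lists. That none passed is thus no evidence that the lists were unchanged. The sort held endothelial RNA on every array, judged by the mean of the 26 general endothelial markers. Their mean log2 value was 9.32, 8.69 and 8.71 on the diabetic arrays, against 8.98, 9.14 and 8.72 on the nondiabetic arrays. All 26 passed the dim filter, which uses the mean of a gene over the 6 arrays. The mean of the 13 tested arteriolar markers was 8.18, 7.63 and 7.49 on the diabetic arrays, against 8.08, 8.39 and 7.89 on the nondiabetic arrays. Within each group the arrays stood in the same order for this mean as for Sod2. The B lymphoid mean had that order too, although its group difference, 0.28, was opposite in sign to that of Sod2. Over the 6 arrays the Pearson r with Sod2 was 0.84 for the arteriolar mean and -0.83 for the neutrophil mean. Both values pool the groups, so they mix the group differences with the variation between arrays of a group. These comparisons were made with the values known and do not single out the arteriolar list. With the arteriolar mean as a covariate, a fit added after the values were seen, the Sod2 difference was -0.29 (SE 0.16) and the Gclm difference -0.52 (SE 0.21), neither called. With the general endothelial mean as a covariate they were -0.40 and -0.40.

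The mean of the 11 tested sinusoidal markers was 8.59, 8.06 and 8.05 on the diabetic arrays, against 7.83, 7.71 and 7.61 on the nondiabetic arrays, with no overlap. Monocyte and macrophage markers (13 of 18 tested, 5 dim) ranged from 7.42 to 7.59 on the diabetic arrays, against 7.05 to 7.22 on the nondiabetic arrays. Neutrophil markers (10 of 16 tested, 6 dim) ranged from 7.61 to 7.71 on the diabetic arrays, against 7.10 to 7.42 on the nondiabetic arrays. Over all 16 neutrophil markers, dim ones included, the mean difference was 0.21, against 0.40 for the 10 tested. For each of these 3 lists the exact two-sided permutation p was 0.1, the smallest possible, and 0.367 after adjustment over the 11 marker lists. Vcam1 was on both the sinusoidal and the monocyte and macrophage list, so those lists are not fully independent. All 10 plasma cell markers were higher by mean, where 46% of all tested genes were lower. The same held for all 10 tested neutrophil markers and all 10 tested megakaryocyte and platelet markers. The plasma cell mean was 7.69, 6.89 and 7.43 on the diabetic arrays, against 6.60, 6.90 and 7.15 on the nondiabetic arrays, with overlap (exact permutation p = 0.3). The lowest Gclm value and the highest plasma cell mean were both on diabetic replicate 1. The highest Gclm value and the lowest plasma cell mean were both on nondiabetic replicate 1. The monocyte and macrophage mean was also highest on diabetic replicate 1, at 7.59, and lowest on nondiabetic replicate 1, at 7.05. Among the dim genes were Adgre1 and Mpeg1 of macrophages and Ly6g, Camp and Ltf of neutrophils. The part of these markers in the Sod2 and Gclm values was not tested, and in sorted populations fewer cells of a type and less RNA per cell cannot be told apart.

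Erythroid markers are given because red cell precursors carry much catalase, Gpx1 and Sod1. The 11 tested erythroid genes had mean values of 6.48 to 6.75 on the diabetic arrays, against 6.60 to 6.81 on the nondiabetic arrays, while the globin genes had no probe set naming them alone. The brightest marker of each list, taken by mean over all arrays, is given for both groups. Those of the neutrophil, erythroid, platelet, basophil and plasma cell lists show signal of other cells. Which cells gave the signal of Ly6c2, the brightest gene of the monocyte list, was not tested. The list means are a fuller measure than these single genes. These markers were Ly6c2 of monocytes at 11.09 against 10.76, Mpo of granulocyte precursors at 10.71 against 10.45, Car1 of erythroid cells at 9.58 against 9.67 and Ppbp of platelets at 11.39 against 11.32 in diabetic and nondiabetic cells. Prss34 of basophils stood at 11.39 against 11.29, Jchain of plasma cells at 10.39 against 10.15 and Ebf1 of B lymphoid cells at 8.14 against 8.37. The mean of the 8 tested B lymphoid markers lay the other way from Ebf1, at 6.14 in diabetic and 5.86 in nondiabetic cells (exact permutation p = 0.2). Fabp4, which adipocytes and endothelium both express, stood at 12.25 against 12.15. Among endothelial markers these were Cdh5 (VE-cadherin) at 10.88 against 10.98, Il6st at 11.14 against 10.89 and Fbln5 at 9.27 against 9.70.

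**Figure D3:**
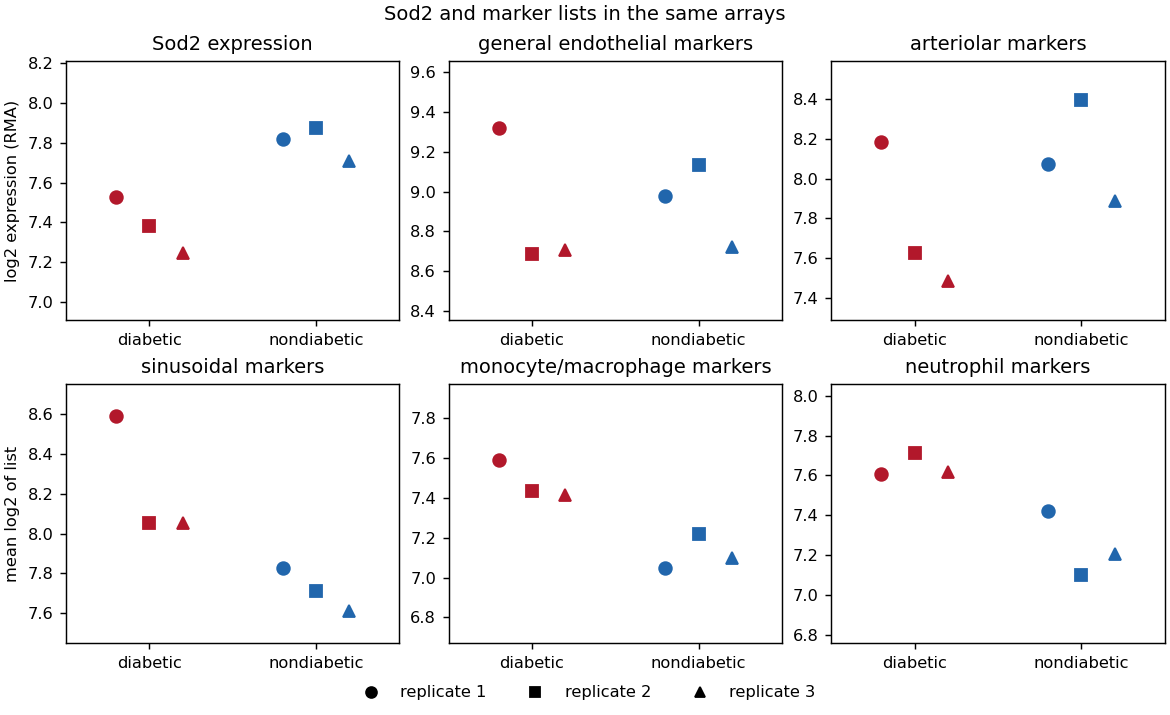
Log2 expression of Sod2 and mean log2 values of 5 marker lists on each array (vertical axes, all spanning the same range), diabetic in red on the left and nondiabetic in blue on the right, with a symbol for each replicate number. Sod2 is lower and the sinusoidal, monocyte/macrophage and neutrophil means are higher on all 3 diabetic arrays, while the general endothelial and arteriolar means overlap between the groups.

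Genes that feed or use the same chemistry were taken from 10 lists holding 153 genes, of which 117 were tested. With limma, 0 of the 117 passed the adjusted test, where 0.00751% of all tested genes did. At an unadjusted p under 0.05, 3 were higher and 0 lower in diabetic cells, together 2.56%, where 4.25% of all tested genes reached this. The genes at an unadjusted p under 0.05 were Idh2, Pex10 and Mgst3. The diabetic arrays lay wholly above the nondiabetic arrays for 6 and wholly below for 0 of the 117, where 5.28% and 2.67% of all tested genes did so. By mean, 78 were higher and 39 lower, where 46% of all tested genes were lower.

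NADPH is the reductant that glutathione reductase spends. Of the 11 tested NADPH genes 9 were higher and 2 lower, with a median log2 difference of 0.15, which was -0.0070 without diabetic replicate 1, 0.07 without nondiabetic replicate 2 and 0.0095 with array weights. Idh2, the mitochondrial isocitrate dehydrogenase that makes NADPH in the same compartment as Sod2, averaged 7.95 ± 0.15 in diabetic cells and 7.39 ± 0.18 in nondiabetic cells (SD, n = 3 each). All diabetic arrays were higher, and the difference was 0.55 (SE 0.17), with a limma adjusted p = 0.997. Pgls of the pentose phosphate pathway differed by 0.23. Nnt, the mitochondrial transhydrogenase in which C57BL/6J mice carry a deletion, averaged 5.57 ± 0.38 in diabetic cells and 5.40 ± 0.03 in nondiabetic cells. Which part of the gene this probe set covers was not examined.

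Glutathione supply and use showed no gene past the adjusted test either. Of 13 tested supply genes 5 were higher and 8 lower, with a median of -0.05 that ranged from -0.15 to 0.08 over the alternatives. Chac1, a stress-induced enzyme that degrades glutathione, differed by -0.54 (SE 0.29) and Ggct, a cyclotransferase of glutathione breakdown, by 0.18. The cystine transporter gene Slc7a11 was dim. Of 16 tested genes that use glutathione 12 were higher and 4 lower, with a median of 0.14, which dropped to 0.019 when diabetic replicate 1 was left out and to 0.052 for nondiabetic replicate 3. Mgst3, a microsomal transferase, averaged 6.59 ± 0.50 in diabetic cells and 6.03 ± 0.03 in nondiabetic cells (SD, n = 3 each), and overlapped, while the glutaredoxin gene Glrx3 differed by 0.41 (SE 0.27).

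Other peroxide-removing enzymes gave small differences. The 2 further glutathione peroxidases that were tested, Gpx7 and Gpx8, both of the endoplasmic reticulum, differed by -0.19 and -0.26. Gpx2, Gpx5 and Gpx6 were dim. Of 11 peroxiredoxin and thioredoxin genes 6 were higher and 5 lower, with a median of 0.03 that ranged from -0.06 to 0.22 over the alternatives. Txnrd1 (thioredoxin reductase) and Sesn1 (a sestrin) differed by -0.24 and 0.19. Of 15 tested genes for selenoproteins and their synthesis, on which Gpx1, Gpx3 and Gpx4 depend, 11 were higher and 4 lower, with a median of 0.05 that ranged from -0.02 to 0.15 over the alternatives. Among them Selenos, of the endoplasmic reticulum, differed by 0.46 (SE 0.24) and Trnau1ap, which binds the selenocysteine tRNA, by -0.43 (SE 0.28).

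Metal, peroxisome and iron genes had more higher than lower means, where 46% of all tested genes were lower, and none passed the adjusted test. Of 9 metal handling genes 8 were higher and 1 lower, with a median of 0.11, which was 0.00067 without diabetic replicate 1 and 0.17 to 0.18 without nondiabetic replicate 1 or diabetic replicate 3. The copper pump gene Atp7a, whose product loads Sod3, differed by 0.31 (SE 0.19) with all diabetic arrays higher. Cox17, a mitochondrial copper chaperone, differed by 0.23. Of 11 peroxisome genes 7 were higher and 4 lower, with a median of 0.07 that ranged from 0.026 to 0.13 over the alternatives. The peroxin genes Pex10 and Pex19 differed by 0.42 (SE 0.17) and 0.44 (SE 0.21), both without overlap. Of 14 ferroptosis and iron genes 10 were higher and 4 lower, with a median of 0.13, which was 0.070 without diabetic replicate 1, 0.038 without nondiabetic replicate 1 and 0.065 without nondiabetic replicate 2. The ferritin receptor gene Ncoa4 differed by 0.42 (SE 0.22), and Acsl4, which supplies the lipids that Gpx4 protects, by -0.28 (SE 0.16). Of 15 tested regulators 10 were higher and 5 lower, with a median of 0.05 that ranged from 0.027 to 0.093 over the alternatives. Rela, the NF-kB subunit that can induce Sod2, differed by 0.46 (SE 0.25), and Bach1, a repressor of antioxidant response elements, by 0.29 (SE 0.20).

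**Figure D4:**
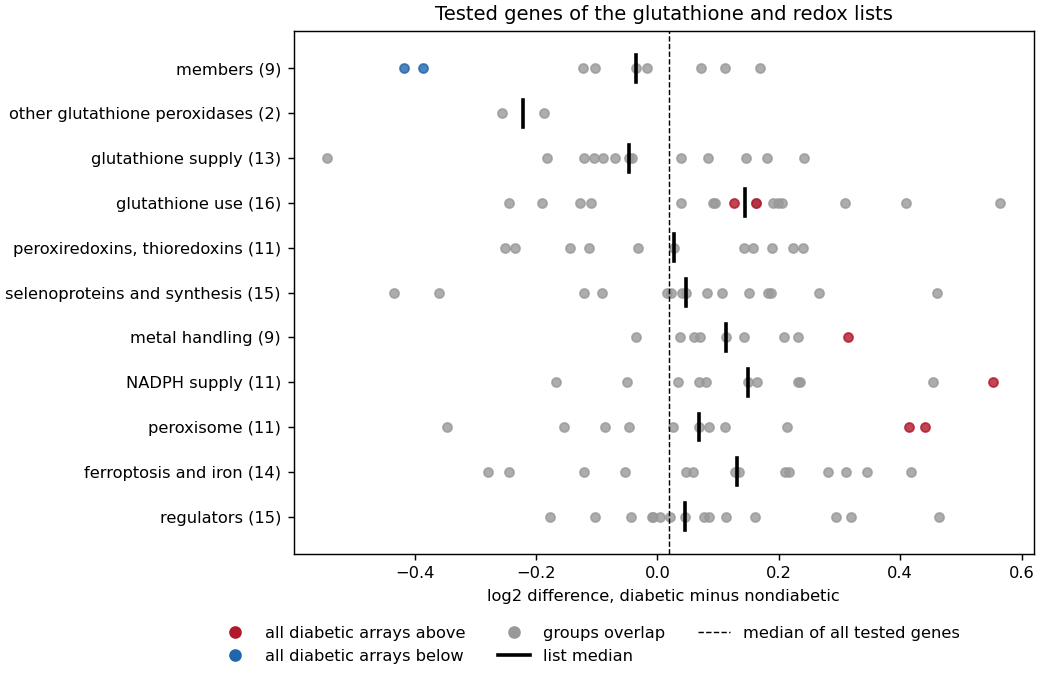
Log2 difference, diabetic minus nondiabetic (horizontal axis), of every tested gene in the members and the 10 lists, with the number tested in brackets; black bars are list medians and the dashed line is the median of all tested genes, 0.02. Sod2 and Gclm are the blue points, the only genes shown with all diabetic arrays below, and 6 genes in red have all diabetic arrays above.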

How the data were processed

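The authors deposited log2 expression values of 6 arrays computed by RMA, the robust multi-array average, as the submitters' processing notes record. RMA subtracts background, equalises the distributions of the arrays and merges the probes of a set into 1 value. Levels of different probe sets are compared here to choose the brightest probe set or marker and to leave out dim genes. They are also combined in the ratios of the 2 gene pairs and in the marker list means. RNA was amplified with a whole-transcriptome kit and labelled with biotin, per the labels' protocols. The software is not given in the sources used here. The array medians were 5.21 to 5.28, and the number of arrays limits the precision.

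Of 41345 probe sets, 23521 name 1 gene in the platform annotation, which can be old, 1814 name several and 16010 none here. Each of 22180 genes took its brightest probe set, and the 40% of genes with the lowest means were left out as dim. The 13308 remaining genes were fitted with limma 3.58.1 in R 4.3.3 (lmFit and eBayes, no covariates), with Benjamini-Hochberg adjustment over all of them and a threshold of 0.05. The code was tested on simulated data. The members and gene lists were chosen with earlier results of these data known. Named are all members, the 2 tested genes with the smallest p in each pathway list, the brightest gene of each marker list, and Nnt; other genes, named as dim, were picked after their values were seen. Alternatives were other filters on dim genes, other handling of probe sets, quantile normalization again, median centring, variances with trend and robust settings, weights per array, the replicate number as a block, marker means as covariates, and each array left out. Promoter sequences are from RefSeq, build GRCm38.p6.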

Additional observations from a re-analysis of the deposited data

How the results depend on the processing

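The count of members called was 0 under all 17 alternatives, as was that of the pathway list genes. Over the whole table the count of genes called was 1, but 0 with the filter at the 60th percentile and 0 to 1 with 1 array left out (0 without nondiabetic replicate 3). The differences of Sod2, Gclm and Gpx1 kept their sign in every alternative. The dim filters, the probe set handling, the variance settings and the replicate block could not change a member's difference, so they say nothing about its sign. With 1 array left out, differences ranged from -0.18 to 0.082 for Gpx4, -0.078 to 0.055 for Sod1, -0.18 to 0.25 for Sod3, -0.35 to 0.028 for Cat, -0.31 to 0.0069 for Gclc and -0.0070 to 0.30 for Gsr, so these signs are not settled. Gclc was 0.11 with array weights. With the arteriolar mean as a covariate, Gpx4 was 0.0057, Sod1 0.11, Sod3 -0.051 and Cat 0.042. The cause was not tested. Sod3 was removed as dim by the filter at the 60th percentile. The labels number the replicates 1 to 3 in both groups; deviations of same-numbered arrays had correlations of -0.04, -0.06 and 0.02 across genes, so the numbers were not taken to pair the arrays, although replicate 3 had the highest megakaryocyte and basophil marker means in both groups. With the replicate block the Sod2 difference was -0.42 (SE 0.17) and no call changed. Array scan order and batches are not in the labels used here. Gpx3 and Sod3 lay near the limit for dim genes, where signal and background are hard to tell apart.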
